A study of Homo sapiens with 12 samples.

Results

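The genes described here encode acetyltransferases that act on histone tails, CREBBP, EP300, KAT2B and KAT2A, together with PPP1R12C, the gene edited in the control clones. They were chosen by position: every H3K27ac peak lying wholly inside 1 of 5 windows of the hg19 genome counted. The windows were chr16:3750000-3950000 for CREBBP, chr22:41470000-41600000 for EP300, chr3:20060000-20210000 for KAT2B, chr17:40255000-40285000 for KAT2A and chr19:55595000-55640000 for PPP1R12C. Overlapping peaks from the 6 lists were joined into regions, and 34 of the 48876 regions lay inside these windows. H3K27ac, acetylation of lysine 27 on histone H3, was mapped by chromatin immunoprecipitation and sequencing in SUDHL4, an established line of diffuse large B-cell lymphoma.

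Single clones were obtained by limiting dilution after CRISPR/Cas9 editing, 2 for each of 3 genotypes. The CREBBP-KO clones were made with guides against exon 15 (clone 1) and exon 20 (clone 2) of CREBBP, although the title of clone 1 carries exon 13. The EP300-KO clones were made with guides against exon 17 (clone 1) and exon 24 (clone 2) of EP300. Per the labels, loss of the protein was checked in these 4 clones by sequencing of the target and western blot. Both WT clones had been edited with Cas9 inside PPP1R12C and were checked for expression of CREBBP and EP300. The labels mention no PPP1R12C edit in the knock-out clones, so at that locus genotype and editing cannot be told apart. Each clone is a separate line grown from 1 cell, and the spread between the 2 clones of a genotype is the only replicate error. The peak lists hold no protein or transcript measurement and give no check of the knock-outs themselves.

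CREBBP and EP300 are paralogous lysine acetyltransferases and coactivators that acetylate H3K27 at enhancers and promoters, and both genes are recurrently mutated in B-cell lymphoma. KAT2A (GCN5) and KAT2B (PCAF) are a second pair of paralogues, which act in SAGA-type and ATAC-type complexes and are best known for acetylating lysine 9 of histone H3. PPP1R12C encodes a regulatory subunit of myosin phosphatase, and its first intron holds the AAVS1 site, widely used as a neutral place for genome edits. The question put to these loci was whether the acetylated length at the remaining paralogue is greater when the other one is lost.

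H3K27ac peaks described next lie on or beside the known hg19 starts of all 5 genes. Shown here are the promoters of the 2 knocked-out genes and of the edited control gene. They are the 250 bases before each RefSeq start on GRCh38.p14, in the direction of the gene, and capitals mark matches to GGGCGG (SP1) and TGACGTCA (CRE) on either strand, which may share bases. CREBBP has a pair of RefSeq starts 593 bases apart, and both are given (chr16:3880714-3880963 and chr16:3880121-3880370, minus strand). EP300 is at chr22:41092342-41092591 on the plus strand, and PPP1R12C at chr19:55117638-55117887 on the minus strand. All 5 genes matched the RefSeq promoter table. These positions are of another build than the peaks, which are all given on hg19, and no position was carried between them.
CREBBP, upstream start: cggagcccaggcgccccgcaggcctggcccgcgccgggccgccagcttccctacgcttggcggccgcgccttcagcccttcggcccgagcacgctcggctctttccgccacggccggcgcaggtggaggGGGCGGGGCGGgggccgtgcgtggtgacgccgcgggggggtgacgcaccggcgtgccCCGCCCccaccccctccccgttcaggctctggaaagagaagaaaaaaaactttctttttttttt
CREBBP, downstream start: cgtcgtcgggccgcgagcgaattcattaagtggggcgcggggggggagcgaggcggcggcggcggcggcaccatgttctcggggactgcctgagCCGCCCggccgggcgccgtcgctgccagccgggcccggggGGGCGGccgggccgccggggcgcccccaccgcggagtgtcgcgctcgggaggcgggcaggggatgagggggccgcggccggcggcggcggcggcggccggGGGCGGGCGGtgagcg
EP300: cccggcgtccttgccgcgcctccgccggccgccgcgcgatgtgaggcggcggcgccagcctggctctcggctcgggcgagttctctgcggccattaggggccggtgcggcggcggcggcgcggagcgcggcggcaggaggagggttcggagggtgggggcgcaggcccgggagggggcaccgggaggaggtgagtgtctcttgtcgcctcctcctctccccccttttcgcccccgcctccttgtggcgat
PPP1R12C: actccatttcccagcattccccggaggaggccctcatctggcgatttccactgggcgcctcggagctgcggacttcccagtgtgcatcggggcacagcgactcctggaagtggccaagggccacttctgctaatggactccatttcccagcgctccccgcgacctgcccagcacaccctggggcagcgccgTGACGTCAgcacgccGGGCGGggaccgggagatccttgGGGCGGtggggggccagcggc

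The downstream CREBBP sequence was 84% G and C, higher than in 99.3% of all RefSeq promoters, against 72.4% at the upstream start, 76.8% at EP300 and 68.4% at PPP1R12C. GGGCGG matched 3 times at the upstream and 4 times at the downstream CREBBP start, 2 times at PPP1R12C and 3 times at KAT2B, and not in the EP300 and KAT2A windows. At least 1 such match is found in 42.6% of 35116 promoters of this length. The CRE palindrome matched 1 time, at PPP1R12C, and occurs in 1.65% of promoters. The ETS motif CCGGAA, the NFY motif CCAAT and the TATA box TATAAA, searched on both strands, had no match in the 6 promoter entries of the 5 genes and occur in 14.5%, 32% and 10.7% of all promoters. The NRF1 motif had none either, and occurs in 5.07% of promoters. A match or its absence describes these letters only.

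The deposited lists held 36096 and 41099 peaks in the CREBBP-KO clones, 35054 and 35841 in the EP300-KO clones, and 46940 and 40658 in the WT clones. The peaks of the CREBBP-KO clones covered 28.22 and 35.1 Mb, those of EP300-KO 26.07 and 26.22 Mb, and those of WT 33.86 and 31.28 Mb. Between 27 and 35 peaks per clone lay inside the 5 windows. The B cell marker windows (CD79A, CD79B, MS4A1 and PAX5) held peaks in all 6 clones and none differed between genotypes past the threshold. ALB, a hepatocyte gene, had 0 covered bases in all 6. The CD14 window had 513 to 797 covered bases and the CD3E window 4392 to 7376, and these windows also take in neighbouring genes. Read depth is not given per library, so covered length, the bases under peaks, is the measure used throughout. Differences between genotypes were tested with limma on log2(covered bases + 100) after centring each clone on its median, with Benjamini-Hochberg adjustment over 8436 windows or 19860 regions and a threshold of 0.05. Relative to the WT mean, the log2 covered length of the median window was -0.25 and 0.06 in the CREBBP-KO clones and -0.20 and -0.22 in the EP300-KO clones. For the median region it was -0.16 and 0.09 in the CREBBP-KO clones and -0.21 and -0.19 in the EP300-KO clones. A log2 difference of a locus is therefore relative to the typical window of each clone, and that of a region to its typical region. Both knock-outs are compared with the same 2 WT clones.

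**Figure D1:**
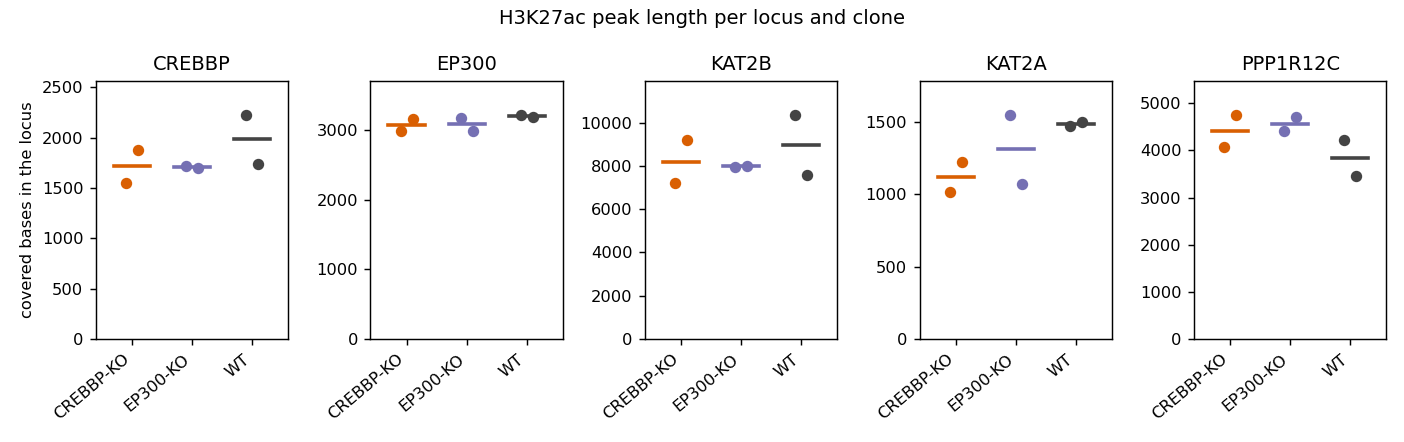
Bases under H3K27ac peaks in each locus window (vertical axis, linear from 0, a scale for each locus) in the CREBBP-KO, EP300-KO and WT clones. Each point is 1 clone and each bar the mean of 2 clones. At EP300 both knock-outs sit at 2982 to 3174 covered bases and WT at 3187 and 3221. At PPP1R12C both EP300-KO clones sit above both WT clones.

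No locus passed the threshold in either knock-out against WT. At the same threshold 0.284% of all windows were called in CREBBP-KO against WT and 5.25% in EP300-KO against WT. The remaining paralogue showed no change that passed the test: EP300 in CREBBP-KO differed by 0.03 and CREBBP in EP300-KO by 0.01 on the log2 scale. The CREBBP value is of its whole window, where most of the covered length lay at the start of another gene. The region at the CREBBP start itself was too short for the main test and is described below. Of the 18 regions of the 5 loci long enough to be tested, 0 passed in either comparison, against 0.292% of all regions called in CREBBP-KO and 6.39% in EP300-KO. An unadjusted p under 0.05 was reached by 1 of the 18 regions in CREBBP-KO, where 8.52% of all regions reached it, and by 2 in EP300-KO, where 22.6% did. In raw covered bases, both CREBBP-KO clones lay below both WT clones at 2 of the 5 loci (EP300 and KAT2A) and above at 0, against 19.2% and 10.9% of all windows. EP300-KO lay wholly below WT at 2 loci (CREBBP and EP300) and wholly above at 1 (PPP1R12C), against 51.3% and 11.0% of all windows. At KAT2A the order of EP300-KO and WT depends on peaks at the window edge, as given below. Each comparison rests on 2 clones against 2, so a two-sided exact permutation test on any single locus could not go below p = 0.333.

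EP300, the paralogue that remains in CREBBP-KO, had 2982 and 3153 covered bases in the CREBBP-KO clones, 3174 and 2986 in the EP300-KO clones, and 3221 and 3187 in the WT clones. Both clones of each knock-out lay below both WT clones, and the WT clones differed from each other by less than the knock-out clones did. After centring, the log2 difference was 0.03 in CREBBP-KO (SE 0.12, 95% interval -0.29 to 0.36, limma adjusted p = 0.926) and 0.15 in EP300-KO (SE 0.12, 95% interval -0.17 to 0.47, limma adjusted p = 0.494). Both signs turn without centring, to -0.06 in each knock-out, and the CREBBP-KO value is -0.07 without CREBBP-KO clone 1 and -0.03 without WT clone 1. The interval in CREBBP-KO bounds the difference without showing that the locus was the same.

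The EP300 gene start carried one of the best-scoring sites of every list. The peak just upstream of the start, chr22:41487666-41488246, had a deposited score of 147 and 160 in the CREBBP-KO clones, 170 and 167 in the EP300-KO clones and 166 and 155 in the WT clones. Between 97.8% and 99.8% of the peaks of the same list scored lower, and 170 is the highest score any list holds. The score is the authors' own, its meaning is not stated, and it is used only to place a peak within its list.

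Over the EP300 start itself, chr22:41488391-41489873, the covered length was 1168 and 1191 bases in the CREBBP-KO clones, 1274 and 977 in the EP300-KO clones and 960 and 993 in the WT clones. Both CREBBP-KO clones lay above both WT clones, and 1 of the 2 EP300-KO clones did. The difference was 0.29 in CREBBP-KO (SE 0.17, 95% interval -0.16 to 0.73, limma adjusted p = 0.749) and 0.38 in EP300-KO (SE 0.17, 95% interval -0.07 to 0.82, limma adjusted p = 0.272), on the log2 scale. The CREBBP-KO value was 0.16 with a pseudocount of 1000 bases, 0.13 with gaps of up to 500 bases joined and 0.18 without CREBBP-KO clone 1. The EP300-KO value was 0.18 without centring, 0.20 with the larger pseudocount, 0.22 without EP300-KO clone 1 and 0.56 without EP300-KO clone 2. Summed over the 3 regions within 2 kb of the start, a sum added after the values were seen, EP300 had 2222 and 2197 covered bases in CREBBP-KO, 2381 and 2117 in EP300-KO and 2056 and 2103 in WT. Both knock-outs lay wholly above WT, CREBBP-KO at 1.06 and EP300-KO at 1.08 times the WT mean, with a two-sided exact permutation p of 0.333 each. The sum of EP300-KO clone 2 was close to the higher WT sum, at 2117 against 2103 bases, and over the start region itself that clone, at 977 bases, lay between the WT clones. At KAT2B the same sum was 1.06 and 1.07 times the WT mean in CREBBP-KO and EP300-KO, and the clones overlapped. At PPP1R12C it was 1.38 in CREBBP-KO, wholly above WT, and 1.12 in EP300-KO, which overlapped. At CREBBP and KAT2A it takes in only the 1 start region described below. No share over other gene starts is given.

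**Figure D2:**
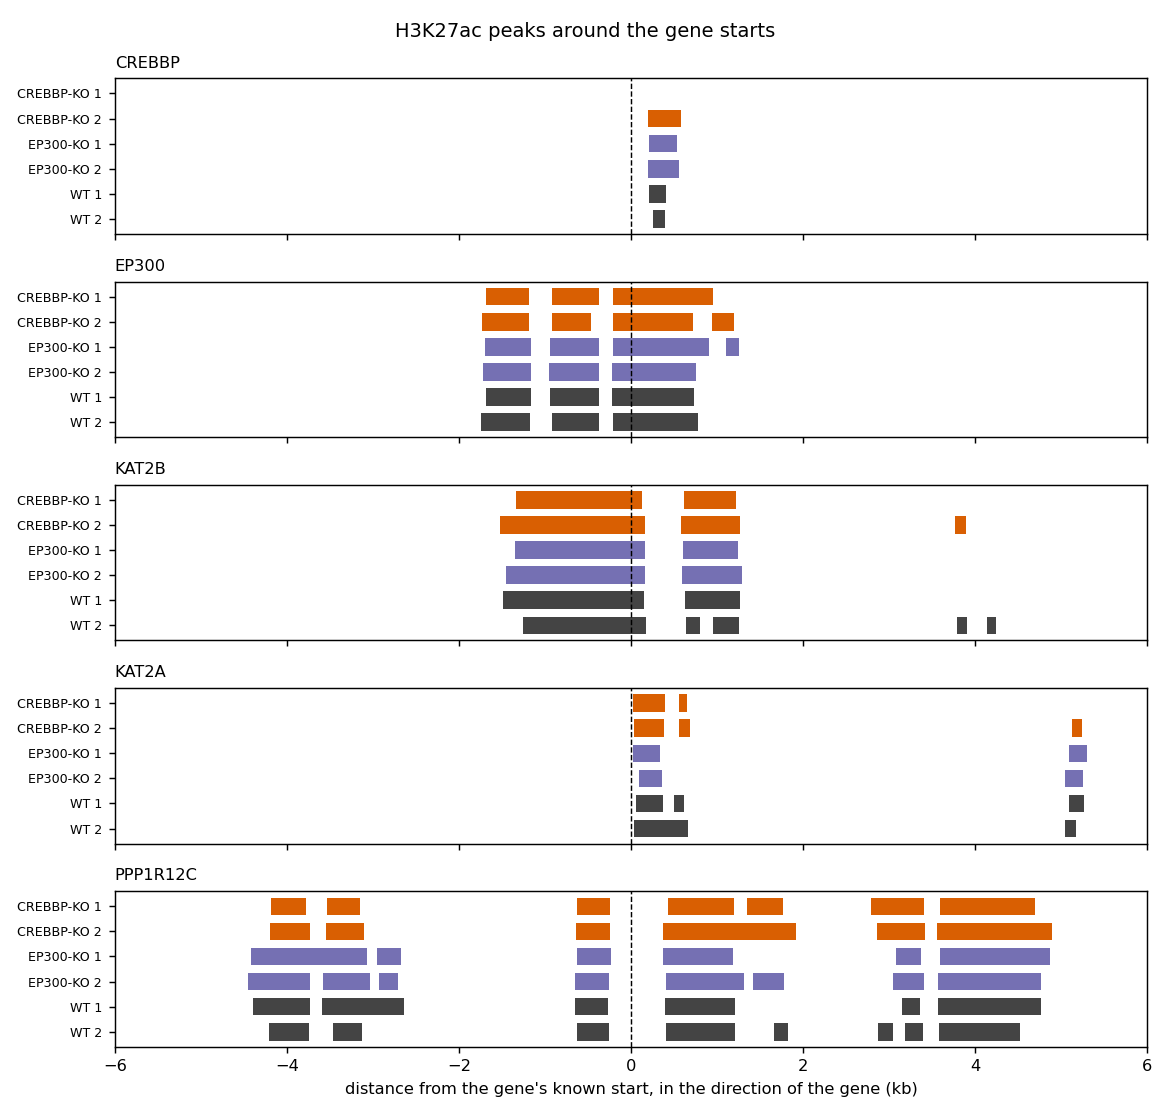
H3K27ac peaks of each clone (rows, CREBBP-KO above EP300-KO above WT) within 6 kb of the known start of each gene, as distance from the start in kb in the direction of the gene. Bars are peaks and the dashed line is the start. EP300 and KAT2B show blocks on the start in all 6 clones. CREBBP shows a single short block in 5 clones and none in CREBBP-KO clone 1.

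A short region 12.7 kb upstream of EP300, chr22:41475800-41475961, had 0 covered bases in all 4 knock-out clones, against 133 and 134 in the WT clones. It was the only region of the 34 lost by presence, meaning present in both WT clones and in neither clone of a knock-out. It lies 209 bases from the neighbouring region chr22:41474462-41475590, and with gaps of up to 500 bases joined 0 regions of the 5 loci were lost. Over all regions, 3.05% were lost in CREBBP-KO and 9.15% in EP300-KO. By presence 0 regions of the 5 loci were gained, against 1.25% over all regions in CREBBP-KO and 1.74% in EP300-KO. Where at least 50% of a region had to be covered, 1 region counted as gained in EP300-KO, the one at the CREBBP start, against 2.08% of all regions. Under the same rule 2 regions counted as lost in each knock-out, the region named above and a region of KAT2A. The KAT2A region was chr17:40268088-40268341 in CREBBP-KO and the start region, chr17:40272697-40273359, in EP300-KO. No share over all regions is given for these losses. By presence without EP300-KO clone 2, 2 short regions of KAT2B counted as gained. The count of lost regions changed with the clones used: without WT clone 2 it was 6 in each knock-out, and without WT clone 1 it was 2 in CREBBP-KO and 4 in EP300-KO. Without CREBBP-KO clone 2 it was 3 in CREBBP-KO. Leaving out a clone loosens the presence rule for every region. No share over all regions is given for the counts without a clone, so they show no excess at these loci. The region lost by presence was below the length filter of 500 bases, and no test is given for it, since it was singled out by its presence. The neighbouring region had 760 and 956 covered bases in CREBBP-KO, 793 and 869 in EP300-KO and 1032 and 950 in WT.

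CREBBP, the paralogue that remains in EP300-KO, had 1551 and 1876 covered bases in the CREBBP-KO clones, 1714 and 1698 in the EP300-KO clones and 2227 and 1740 in the WT clones. The EP300-KO values were both below the lower WT value, while CREBBP-KO and WT overlapped. After centring, the difference was 0.01 in EP300-KO (SE 0.11, 95% interval -0.28 to 0.30, limma adjusted p = 0.962) and -0.10 in CREBBP-KO (SE 0.11, 95% interval -0.39 to 0.19, limma adjusted p = 0.752), on the log2 scale. Without centring the EP300-KO value was -0.20, and without WT clone 2 it was -0.09.

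Most of the covered length in the CREBBP window lay at the start of another gene. The regions chr16:3766479-3767435 and chr16:3767601-3768284 flank the known start of TRAP1, a mitochondrial chaperone gene, about 162 kb from the CREBBP start. The first had 891 and 897 covered bases in CREBBP-KO, 752 and 779 in EP300-KO and 843 and 957 in WT, and the second had 660 and 597 in CREBBP-KO, 540 and 559 in EP300-KO and 599 and 639 in WT. In each region the EP300-KO values were the lowest, and after centring the differences of EP300-KO from WT were 0.00 and 0.06 on the log2 scale.

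At the CREBBP start the cover was short. The region chr16:3929539-3929926, in the gene just inside its start, had 0 and 382 covered bases in the CREBBP-KO clones, 323 and 360 in the EP300-KO clones and 193 and 144 in the WT clones. The EP300-KO clones were both above the WT clones, at a mean of 341.5 ± 26.2 bases in EP300-KO against 168.5 ± 34.6 in WT (SD, n = 2 each), a ratio of 2.03 with an exact permutation p of 0.333. Of the 388 bases of the region both EP300-KO clones covered more than 50% and both WT clones less, WT clone 1 with 193 by 1 base. The CREBBP-KO clones lay on either side of WT, and clone 2 of CREBBP-KO had the longest cover of the 6. The region was too short for the main test. Without the length filter the difference was 0.92 in EP300-KO (95% interval -0.91 to 2.76, limma adjusted p = 0.659) and -0.25 in CREBBP-KO (95% interval -2.08 to 1.59, limma adjusted p = 0.983), on the log2 scale. Where this peak was found, between 21% and 50.3% of the same list scored lower, against 97.8% to 99.8% at the EP300 start. Elsewhere in the window, 2 regions were found in WT clone 1 alone and 1 region, chr16:3910332-3910500, in EP300-KO clone 1 and WT clone 1.

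**Figure D3:**
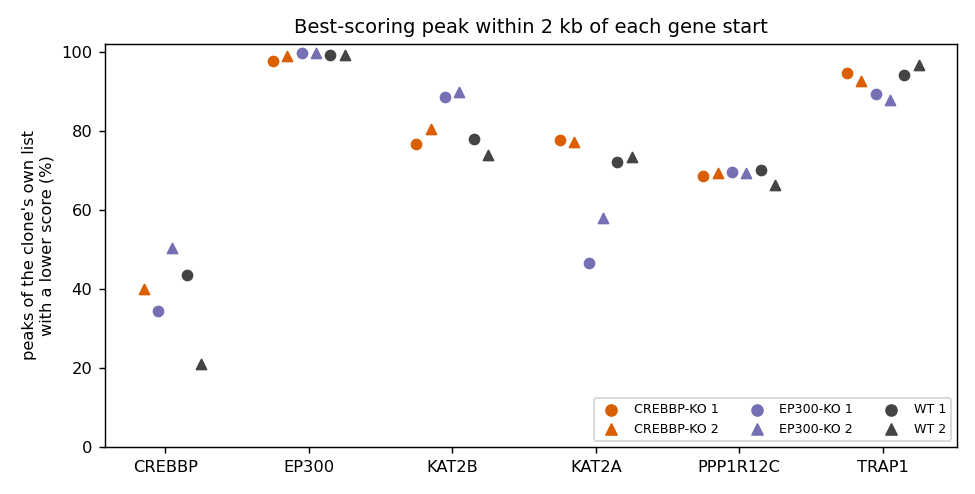
Best-scoring peak within 2 kb of each gene start, as the percent of peaks of the same clone's list with a lower score (vertical axis, from 0), for CREBBP-KO, EP300-KO and WT clones (circle, clone 1; triangle, clone 2). TRAP1, whose start lies in the CREBBP window, is shown beside the 5 genes. EP300 sits at 97.8% to 99.8% in all 6 clones and CREBBP at 21% to 50.3% in the 5 clones with a peak there. The lists differ in length, so the plot orders genes within a clone and shows no change between clones.

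KAT2B had 7193 and 9195 covered bases in the CREBBP-KO clones, 7976 and 7997 in the EP300-KO clones and 10375 and 7580 in the WT clones, and the genotypes overlapped. The difference was -0.03 in CREBBP-KO (SE 0.13, 95% interval -0.38 to 0.32, limma adjusted p = 0.945) and 0.06 in EP300-KO (SE 0.13, 95% interval -0.29 to 0.41, limma adjusted p = 0.816), on the log2 scale. It is the most fragmented of the loci, with 14 regions reaching 124.3 kb into the window from the start, of which 7 were found in all 6 clones. The longest region in both WT clones was chr3:20089180-20091459, 7.7 kb inside the gene. It had 1271 and 1841 covered bases in CREBBP-KO, 1499 and 2011 in EP300-KO and 2275 and 1859 in WT. Both CREBBP-KO clones lay below both WT clones, with a log2 difference of -0.36 (SE 0.19, 95% interval -0.85 to 0.12, limma adjusted p = 0.716). EP300-KO overlapped with WT there, with a difference of -0.03 (limma adjusted p = 0.929). The region over the start, chr3:20080003-20081703, had 1462 and 1689 covered bases in CREBBP-KO, 1522 and 1621 in EP300-KO and 1639 and 1435 in WT. Its log2 difference was 0.07 in CREBBP-KO (limma adjusted p = 0.915) and 0.23 in EP300-KO (limma adjusted p = 0.25), and 0.03 in each without centring. At chr3:20082107-20082811, 0.6 kb inside the gene, CREBBP-KO had 596 and 680 covered bases, EP300-KO 639 and 693 and WT 642 and 468. The genotypes overlapped there, with a difference of 0.22 in CREBBP-KO (limma adjusted p = 0.764) and 0.44 in EP300-KO (95% interval 0.07 to 0.81, limma adjusted p = 0.162).

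Within KAT2B the knock-outs did not overlap with each other in 5 of the 14 regions. Both CREBBP-KO clones were above both EP300-KO clones in 4 and below them in 1, which is 28.6% and 7.14% of the regions, against 27.8% and 10.5% of all regions. At chr3:20095818-20097830, 14.3 kb inside the gene, the covered length was 1009 and 1228 bases in CREBBP-KO, 1751 and 1783 in EP300-KO and 1949 and 1293 in WT. Both CREBBP-KO clones lay below both EP300-KO clones and below both WT clones. The direct difference, CREBBP-KO minus EP300-KO, was -0.79 (SE 0.18, 95% interval -1.26 to -0.31, limma adjusted p = 0.0775), which did not pass the threshold that 7.53% of all regions passed in that comparison. At chr3:20156171-20156917 the covered length was 322 and 722 bases in CREBBP-KO, 216 and 140 in EP300-KO and 645 and 286 in WT. Here the EP300-KO values were the lowest of the 6, with a difference from WT of -0.76 (SE 0.40, limma adjusted p = 0.324) and a direct difference, CREBBP-KO minus EP300-KO, of 0.93 (SE 0.40, limma adjusted p = 0.239).

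KAT2A had 1012 and 1220 covered bases in the CREBBP-KO clones, 1549 and 1068 in the EP300-KO clones and 1471 and 1501 in the WT clones. Both CREBBP-KO clones lay below both WT clones. The difference was -0.29 in CREBBP-KO (SE 0.19, 95% interval -0.77 to 0.19, limma adjusted p = 0.578) and 0.01 in EP300-KO (SE 0.19, 95% interval -0.47 to 0.50, limma adjusted p = 0.969), on the log2 scale. A region on the side of RAB5C, chr17:40283948-40285500, crosses the edge of the window, and only peaks wholly inside were counted. In CREBBP-KO clone 1, EP300-KO clone 1 and WT clone 2 a separate peak of that region lay wholly inside and is part of the total. Without those peaks both EP300-KO clones would lie below both WT clones, so their overlap depends on how peaks were split at the edge. Counting the inside part of crossing peaks turns the EP300-KO value to -0.20.

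Just inside the KAT2A start, chr17:40272697-40273359, the covered length was 468 and 490 bases in the CREBBP-KO clones, 314 and 274 in the EP300-KO clones and 426 and 628 in the WT clones. The EP300-KO values were the lowest of the 6, at 0.558 times the WT mean with an exact permutation p of 0.333. Without the length filter the difference in EP300-KO was -0.45 (SE 0.24, 95% interval -1.10 to 0.20, limma adjusted p = 0.52). Of the regions wholly inside the window, chr17:40264851-40265524 was the longest in 4 of the 6 clones. It lies beside the known start of DHX58, an RNA sensor gene. Its differences from WT were -0.20 in CREBBP-KO (limma adjusted p = 0.782) and 0.20 in EP300-KO (limma adjusted p = 0.427).

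PPP1R12C, the gene edited in the WT clones, had the largest difference of the 5 loci in EP300-KO. It had 4063 and 4758 covered bases in the CREBBP-KO clones, 4404 and 4702 in the EP300-KO clones and 4211 and 3465 in the WT clones. Each EP300-KO clone exceeded both WT clones, and CREBBP-KO overlapped with WT. Per Mb covered by the clone's whole list, the locus had 144 and 135.6 bases in CREBBP-KO, 168.9 and 179.3 in EP300-KO and 124.4 and 110.8 in WT, so that all 4 knock-out clones were above both WT clones, as in 9.31% of all windows on this scale. Both CREBBP-KO clones were above WT per Mb in 17.8% of windows and both EP300-KO clones in 44.1%, and the EP300-KO lists cover the fewest bases. EP300 in EP300-KO, which lay below WT in covered bases, lay above it per Mb, at 121.7 and 113.9 bases in EP300-KO against 95.12 and 101.9 in WT. The difference was 0.29 in CREBBP-KO (SE 0.11, 95% interval 0.01 to 0.58, limma adjusted p = 0.423) and 0.45 in EP300-KO (SE 0.11, 95% interval 0.17 to 0.74, limma adjusted p = 0.0928), on the log2 scale. Unadjusted limma p-values were 0.0443 and 0.00947, where 11.5% and 24.6% of all windows had an unadjusted p under 0.05. The share of windows with an unadjusted p as low as the EP300-KO value is not given. Over the alternatives tried, the adjusted p in EP300-KO ran between 0.0524 and 0.44. The highest was without centring, where the difference was 0.25.

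The order of the genotypes differed between the regions of PPP1R12C. Inside the gene, 0.4 kb from the start, chr19:55627049-55628597 had 1175 and 1549 covered bases in CREBBP-KO, 806 and 1269 in EP300-KO and 812 and 977 in WT. Both CREBBP-KO clones lay above both WT clones, with a difference of 0.59 (SE 0.24, 95% interval -0.03 to 1.21, limma adjusted p = 0.614). Further in, chr19:55625550-55626174 had 607 and 559 covered bases in CREBBP-KO, 302 and 362 in EP300-KO and 207 and 375 in WT, with a difference of 0.88 in CREBBP-KO (SE 0.28, 95% interval 0.15 to 1.61, limma adjusted p = 0.491). At chr19:55624077-55625417, 3.6 kb inside the gene, the covered length was 1108 and 1341 bases in CREBBP-KO, 1273 and 1196 in EP300-KO and 1194 and 939 in WT. Both EP300-KO clones lay above both WT clones there, 1 of them by 2 bases, with a difference of 0.40 (SE 0.12, 95% interval 0.08 to 0.72, limma adjusted p = 0.147). Upstream of the gene the pattern was another one. At chr19:55631611-55633425 the covered length was 792 and 906 bases in CREBBP-KO, 1628 and 1490 in EP300-KO, and 1616 and 800 in WT, whose clones stood near either end. The short region just before the start, chr19:55629204-55629621, was nearly constant at 374 to 403 bases in all 6 clones. The sources used here do not place the guide of the WT clones, and whether the edit bears on these values was not tested.

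Counted over all 34 regions, both CREBBP-KO clones lay above both WT clones in 3 regions and below them in 4, which is 8.82% and 11.8% of the regions, against 10.4% and 15.0% of all regions. Both EP300-KO clones lay above both WT clones in 5 regions and below them in 6, which is 14.7% and 17.6%, against 7.72% and 33.9% of all regions. In 1 region, in KAT2A, CREBBP-KO lay wholly below and EP300-KO wholly above WT, against 0.667% of all regions. Of the 34, 20 were present in all 6 clones and 7 in 1 clone only. WT clone 1, which has the longest list, held 4 of those 7.

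**Figure D4:**
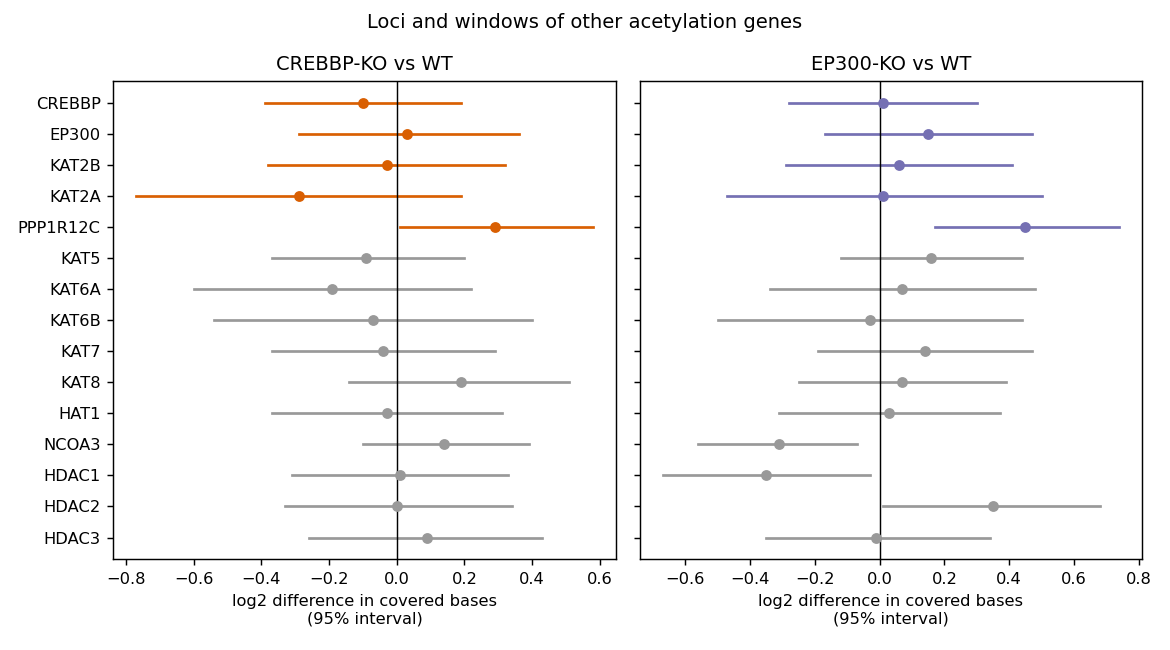
Log2 difference in covered bases after centring (horizontal axis) in CREBBP-KO against WT (left) and EP300-KO against WT (right), with 95% intervals from limma, for the 5 loci (coloured) and the windows of 10 other acetylation genes (grey). Points are estimates over 2 clones against 2. The intervals of EP300 in CREBBP-KO and of CREBBP in EP300-KO include 0, and those of PPP1R12C lie above 0 in both panels before adjustment.

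Other genes that write or remove lysine acetylation were set beside the 5 loci: the acetyltransferases KAT5, KAT6A, KAT6B, KAT7, KAT8, HAT1, NCOA1 and NCOA3, and the deacetylases HDAC1, HDAC2 and HDAC3. NCOA1 did not reach the length filter, and 0 of the other 10 passed the threshold in either direction in any comparison. Their median log2 difference was -0.01 in CREBBP-KO and 0.05 in EP300-KO, against a median of 0.03 over all windows in each comparison. Of the differences in EP300-KO, HDAC1 had the most negative, with 8864 and 10189 covered bases in EP300-KO and 15200 and 12995 in WT (log2 difference -0.35, SE 0.12, limma adjusted p = 0.174). HDAC2 had a difference of the same size in the other direction (0.35, SE 0.13, limma adjusted p = 0.192), with 1431 and 1679 covered bases in EP300-KO and 1562 and 1248 in WT, which overlap. NCOA3, a nuclear receptor coactivator, had 13978 and 17996 covered bases in CREBBP-KO, 10891 and 10451 in EP300-KO and 16438 and 14325 in WT. Its direct difference, CREBBP-KO minus EP300-KO, was 0.46 (SE 0.09, 95% interval 0.21 to 0.70, limma adjusted p = 0.0567), where 7.29% of all windows passed.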

How the data were processed

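H3K27ac was measured by ChIP-seq in 6 clones, each with its own input, and the 6 inputs enter only through the deposited lists. CASAVA 1.8, Bowtie2 2.1.0, SAMtools 0.1.19 and build hg19 are named in the submitters' processing notes. Peaks were called clone by clone against the matching input, per the file headers, by a caller not given in the sources used here. Deposited columns are the start and end position of each peak and a score per peak, which is the authors' value on a scale that the headers do not explain. Starts were read as counted from 0, so a printed start is uncertain by 1 base.

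Covered bases were summed over peaks wholly inside each locus, and over regions made by joining peaks that share at least 1 base. limma 3.58.1 (R 4.3.3) was fitted to log2(covered bases + 100) with a common spread for the 6 clones, after subtracting each clone's median over the features that every clone covers. A feature entered with 500 or more covered bases in 2 or more clones. The locus fit held windows of 100 kb over the genome, the 5 loci and the windows of the gene lists. Tables were made with Python 3.11.15. Intervals (95%) and p-values cover the spread between clones, not read depth, which is unknown.

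The members and gene lists were chosen with earlier results of these data known. Named are all 5 loci, per locus the region with most covered bases, regions past the threshold, regions lost or gained and the region at the gene start, and list genes past the threshold or with the largest difference. The other regions named were chosen after their values were seen. Gene starts and list windows on hg19 were written from general knowledge, not from a file, and 2 of the list windows are not reported here. The chromosomes of all 25 genes were checked against RefSeq (GRCh38.p14), which also gave the promoter sequences. Of the alternatives, the fit with the spread as a trend on the mean and the one with crossing peaks were added after the data were seen.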

Additional observations from a re-analysis of the deposited data

Results flagged for a closer look

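At 1 region of KAT2A, chr17:40268088-40268341, the knock-outs lay on opposite sides of WT, as at 0.667% of all regions. It had 0 and 119 covered bases in CREBBP-KO, 209 and 215 in EP300-KO and 173 and 131 in WT. Both CREBBP-KO clones lay below both WT clones and both EP300-KO clones above them. The mean of CREBBP-KO minus that of EP300-KO was -152.5 bases. The region lies 5.0 kb inside the gene and was too short for the main test, so the difference was not tested there. It was singled out because its clones separate, so the fitted values that follow describe the region and are no test of it. Without the length filter neither difference from WT passed the threshold, at -0.72 in CREBBP-KO (SE 0.33, limma adjusted p = 0.618) and 0.52 in EP300-KO (SE 0.33, limma adjusted p = 0.585), and the direct log2 difference was -1.24 (SE 0.33, 95% interval -2.12 to -0.36, limma adjusted p = 0.167). CREBBP-KO clone 1, which lacks the region, has 36096 peaks in its list. The EP300-KO lists hold 35054 and 35841 peaks and the WT lists 46940 and 40658. Whether list length or read depth bears on the values of this region was not tested.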

How the results depend on the processing

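No paired analysis was possible because the labels tie no clone of 1 genotype to a clone of another. Of 281 alternative values of the 19 locus and start results, 263 kept their direction and 0 crossed the threshold, while 18 turned sign. EP300 in CREBBP-KO (0.03) was -0.06 without centring and -0.02 with equal list lengths, and ran from -0.07 to 0.15 when a clone was left out. CREBBP in EP300-KO (0.01) was -0.20 without centring and -0.04 with scores of at least 30, and ran from -0.09 to 0.11. Without centring, EP300 in EP300-KO was -0.06, KAT2B -0.15 and KAT2A -0.19, and the direct difference 0.00 at CREBBP and 0.03 at KAT2B. With crossing peaks, KAT2A in EP300-KO was -0.20. Leaving out a clone brought CREBBP in CREBBP-KO to 0.00, KAT2B to between -0.18 and 0.13 in CREBBP-KO and between -0.10 and 0.21 in EP300-KO, and KAT2A in EP300-KO to between -0.23 and 0.25. The cause was not tested.

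Counts over all windows moved more. In CREBBP-KO, 24 windows were called, against 0 with a pseudocount of 1000, 2 with the trend, 3 without a filter, 1 with windows of 1 Mb and 10 with only the 4 clones compared, and 0 (without any one of EP300-KO clones 1 and 2 or CREBBP-KO clone 1) to 89 (without WT clone 2). In EP300-KO, 443 were called, against 785 with a pseudocount of 1000, 693 with the trend and 111 with windows of 1 Mb, and 69 (without EP300-KO clone 1) to 332 without a clone. In the direct comparison, 615 were called, against 1119, 1089 and 239 under the same settings, 328 without centring and 57 (without EP300-KO clone 1) to 778 without a clone. Of regions, CREBBP-KO had 58 calls, against 13 with a pseudocount of 1000, 2 with the trend, 420 without a filter, 129 with scores of at least 30 and 151 with equal list lengths, and 17 (without CREBBP-KO clone 1) to 292 (without WT clone 2). EP300-KO had 1270, against 2574 without a filter and 726 to 1257 without a clone. Of the 5 loci, 1 region was lost in each knock-out. Where at least 50% of a region had to be covered the count was 2, with a KAT2A region added. It was 0 with gaps of up to 500 bases joined, and 1 to 6 without a clone. For these alternative counts of lost regions, and for any count without a clone, no share over all regions is given. Gained regions numbered 0, against 1 in EP300-KO with at least 50% covered (the region at the CREBBP start), and 0 to 1 in CREBBP-KO and 0 to 2 in EP300-KO without a clone.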
